A study of Mus musculus with 9 samples.

Results

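Protein disulfide isomerases and their Ero1 oxidases were followed by the 10 genes *P4hb*, *Pdia3*, *Pdia4*, *Pdia5*, *Pdia6*, *Txndc5*, *Txndc11*, *Ero1a*, *Ero1b* and *Agr2*, in the large intestine of mice with missense alleles of *Muc2*. The genes were taken by name, and every probe set that the platform annotation pairs with one of them alone, under its current or former symbol, was kept. This gave 20 probe sets for the 10 genes, of 18193 genes that have a probe set of their own on the array, and no probe set was shared with another gene. *Winnie* mice (C57BL/6, *n* = 3) descend from an ENU-treated founder and carry a *Muc2* allele that puts tyrosine in place of a cysteine in a D domain near the N-terminus. *Eeyore* mice (mixed C57BL/6 and NOD-SCID background, *n* = 3) come from another ENU-treated founder, and their allele puts proline in place of a serine in a D domain near the C-terminus. Wild-type mice were C57BL/6 (*n* = 3). All 9 mice were 8 weeks old and labelled male, and each array read RNA of 1 mouse, an equal mixture of proximal and distal large intestine. Each mutant line stems from 1 mutagenised founder and develops colitis, so that allele, line and inflammation cannot be told apart in these samples.

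Secreted and membrane proteins acquire their disulfide bonds in the endoplasmic reticulum (ER). Protein disulfide isomerases are thioredoxin-fold enzymes that form, break and reshuffle these bonds in folding proteins, and Ero1 oxidases re-oxidise the isomerases with molecular oxygen. Goblet cells of the colon place heavy demands on this system, since mucin 2, the gel-forming mucin encoded by *Muc2*, is rich in cysteines and is assembled into disulfide-linked polymers. Agr2 is the isomerase family member typical of goblet cells and is required for mucin 2 production.

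Several properties of the arrays touch every value that follows. Signals of pancreatic acinar markers were far higher in Wild-type mice 1 and 2 than in any other mouse. Summed over the 7 of 8 listed marker genes that had a probe set of their own, their signal was 182142 and 168359 in these mice and 1215 in Wild-type mouse 3, against 689 to 9946 in *Winnie* and 12025 to 29086 in *Eeyore* mice. *Xist* signals lay between 7371 and 8261 in wild-type and at or below 107 in mutant mice, and those of Y-linked *Eif2s3y* at or below 24.1 in wild-type and between 1074 and 1454 in mutant mice, although all are labelled male. Sex and the *Muc2* allele therefore cannot be told apart in any comparison with wild-type. Median signals over all probe sets were 118 to 129 in wild-type and 87.9 to 99.3 in mutant mice, so dim probe sets are the least comparable between the groups. In whole tissue, fewer cells of a type and less RNA per cell cannot be told apart.

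**Figure D1:**
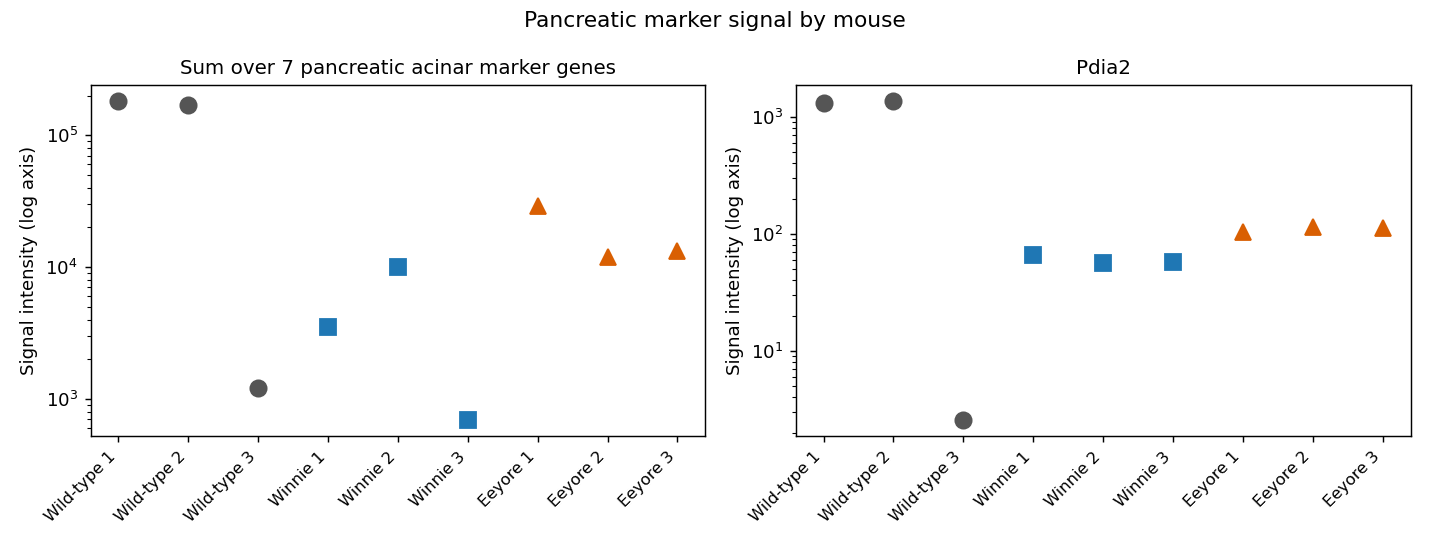
Pancreatic marker signal by mouse, as the summed signal of 7 acinar marker genes (left) and the signal of *Pdia2*, the pancreatic disulfide isomerase (right). Both vertical axes are logarithmic and each point is 1 mouse. Wild-type mice 1 and 2 stand above the other mice in both panels.

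In both strains more of these probe sets were called higher than lower. Of the 20 probe sets, 16 passed the filter on dim signals (a mean log2 signal of at least 6.43), and every gene had at least 1 of them. In *Winnie* mice 6 of the 16 were higher than in wild-type, 2 were lower and 8 missed the threshold (limma, Benjamini-Hochberg adjusted p under 0.05), where 9.75% of all tested probe sets rose and 11.7% fell. In *Eeyore* mice 6 were higher, none lower and 10 missed it, against 12.2% and 17.1% of all tested probe sets. At an unadjusted p under 0.05, limma also gave 0 falls in *Eeyore*. Probe sets of *P4hb*, *Pdia3*, *Pdia6*, *Ero1a* and *Agr2* rose in both strains, *Pdia4* rose in *Eeyore*, and *Txndc5* fell in *Winnie*. In *Eeyore* the *Ero1a* rise was called at 1419029_at only. Its brightest probe set (1449324_at, 0.090 on the log2 scale, adjusted p = 0.617, limma) and 1419030_at (0.12, adjusted p = 0.654) were not called. With the brightest probe set standing for each gene, the median log2 fold change over the 10 genes was 0.23 in *Winnie* and 0.33 in *Eeyore*, against -0.047 and -0.043 over all 11453 tested genes. Both strains were compared with the same wild-type arrays, so these counts are not independent of each other. The shares and medians given for all tested probe sets and genes take in many dim ones. Most of the 16 lay above the 75th percentile of mean log2 signal. A filter at that percentile left 11260 probe sets. For *Winnie*, limma then called 2095 rises against 1453 falls (median log2 change 0.051), and for *Eeyore* 2453 against 1873 (0.054). Rises thus outnumbered falls among bright probe sets generally.

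By mouse, the median deviation of the 10 genes from the wild-type mean was -0.066 to 0.057 on the log2 scale in wild-type, 0.046 to 0.37 in *Winnie* and 0.25 to 0.46 in *Eeyore* mice. *Winnie* mouse 2, the lowest of the mutant mice, lay within the wild-type range. Signals did not overlap between *Winnie* and wild-type mice at 7 higher and 4 lower probe sets of 16, against 17.1% and 25.1% of all tested probe sets. Between *Eeyore* and wild-type they did not overlap at 6 higher and 0 lower, against 18.2% and 26.9%. These shares include the dim probe sets too.

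**Figure D2:**
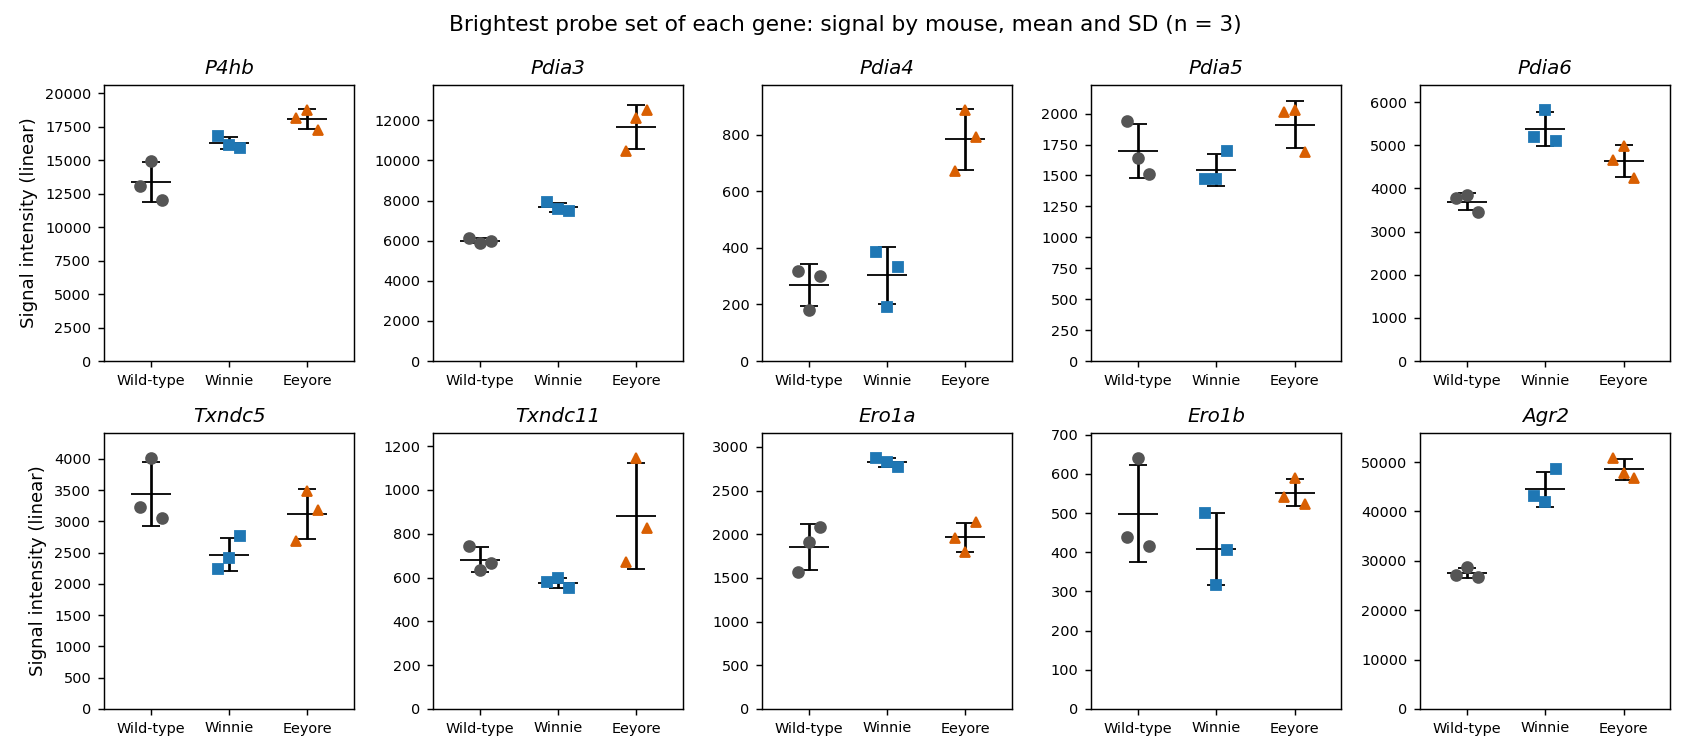
Signal of the brightest probe set of each of the 10 genes in wild-type, *Winnie* and *Eeyore* mice. Points are mice, horizontal lines are group means, error bars are SD (n = 3), and the linear vertical axes start at 0. *Agr2* and *Pdia3* signals of all 6 mutant mice lie above those of the 3 wild-type mice, while the *Ero1a* signals of *Eeyore* mice overlap those of wild-type mice.

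Genes of ER folding are known to share an ER stress response element, CCAAT and CCACG with any 9 bases between them, which is bound by the factors NF-Y and ATF6. The RefSeq promoter windows of the 10 genes (13 windows of 300 bases on GRCm38.p6, from 250 bases before the start) were searched for it on both strands. The exact element lay in the windows of *Pdia6* (positions -98 to -80, counted from 0 at the start) and *Ero1b* (-201 to -183, opposite strand), while 0.119% of all 32851 promoter windows hold it. The element without its last letter (CCAAT, any 9 bases, CCAC) was also found in *Pdia3* (-29 to -12) and *Pdia4* (-107 to -90, opposite strand), against 0.365% of all windows, a share that includes those with the exact element. A related element, ATTGG and CCACG with any 1 base between them, was found in none of the 13 windows (0.0365% of all windows). The letters TGACGTG, the core of another element of the response, were found in 1 of 3 windows of *Txndc5* and, 2 times, in 1 of 2 windows of *Txndc11* (2.01% of all windows). A match of letters is a description and not a binding site, and no binding was measured here.

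The 4 windows with the element, whole or without its last letter, are shown because they hold genes that rose in both strains, in 1 or in neither. They lie at chr12:17266339-17266638 (plus strand, *Pdia6*), chr13:12565633-12565932 (plus, *Ero1b*), chr2:121413652-121413951 (plus, *Pdia3*) and chr6:47813463-47813762 (minus, *Pdia4*), and are printed 5′ to 3′ on the strand of the gene with the match in capitals.
*Pdia6* promoter: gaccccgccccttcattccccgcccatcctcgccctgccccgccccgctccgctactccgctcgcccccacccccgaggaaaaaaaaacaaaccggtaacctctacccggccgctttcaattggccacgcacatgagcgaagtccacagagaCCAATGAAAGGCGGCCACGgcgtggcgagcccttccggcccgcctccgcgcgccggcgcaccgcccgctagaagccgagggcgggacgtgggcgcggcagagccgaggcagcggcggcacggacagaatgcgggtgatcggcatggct
*Ero1b* promoter: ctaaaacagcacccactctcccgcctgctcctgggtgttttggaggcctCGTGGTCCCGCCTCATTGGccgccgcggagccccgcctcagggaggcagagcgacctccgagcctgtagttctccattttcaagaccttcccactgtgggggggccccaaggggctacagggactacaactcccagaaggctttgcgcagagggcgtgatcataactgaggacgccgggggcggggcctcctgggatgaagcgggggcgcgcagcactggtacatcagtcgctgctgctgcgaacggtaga
*Pdia3* promoter: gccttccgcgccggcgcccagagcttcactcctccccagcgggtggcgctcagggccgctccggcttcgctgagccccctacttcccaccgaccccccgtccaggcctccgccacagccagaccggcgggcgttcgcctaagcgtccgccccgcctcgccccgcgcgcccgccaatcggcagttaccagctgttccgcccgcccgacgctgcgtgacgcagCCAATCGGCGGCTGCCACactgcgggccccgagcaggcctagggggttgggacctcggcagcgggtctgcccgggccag
*Pdia4* promoter: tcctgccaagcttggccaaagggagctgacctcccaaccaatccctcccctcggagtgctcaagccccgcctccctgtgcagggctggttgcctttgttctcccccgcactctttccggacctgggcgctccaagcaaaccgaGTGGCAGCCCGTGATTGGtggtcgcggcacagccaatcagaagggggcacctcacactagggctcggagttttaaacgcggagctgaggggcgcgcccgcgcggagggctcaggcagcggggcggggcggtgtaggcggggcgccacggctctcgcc
Of these genes, *Pdia6* and *Pdia3* rose in both strains, *Pdia4* in *Eeyore*, and *Ero1b* in neither. Among the genes without the element, *P4hb* and *Agr2* also rose in both strains, and *Ero1a* rose in *Winnie* and, at probe set 1419029_at only, in *Eeyore*.

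**Figure D3:**
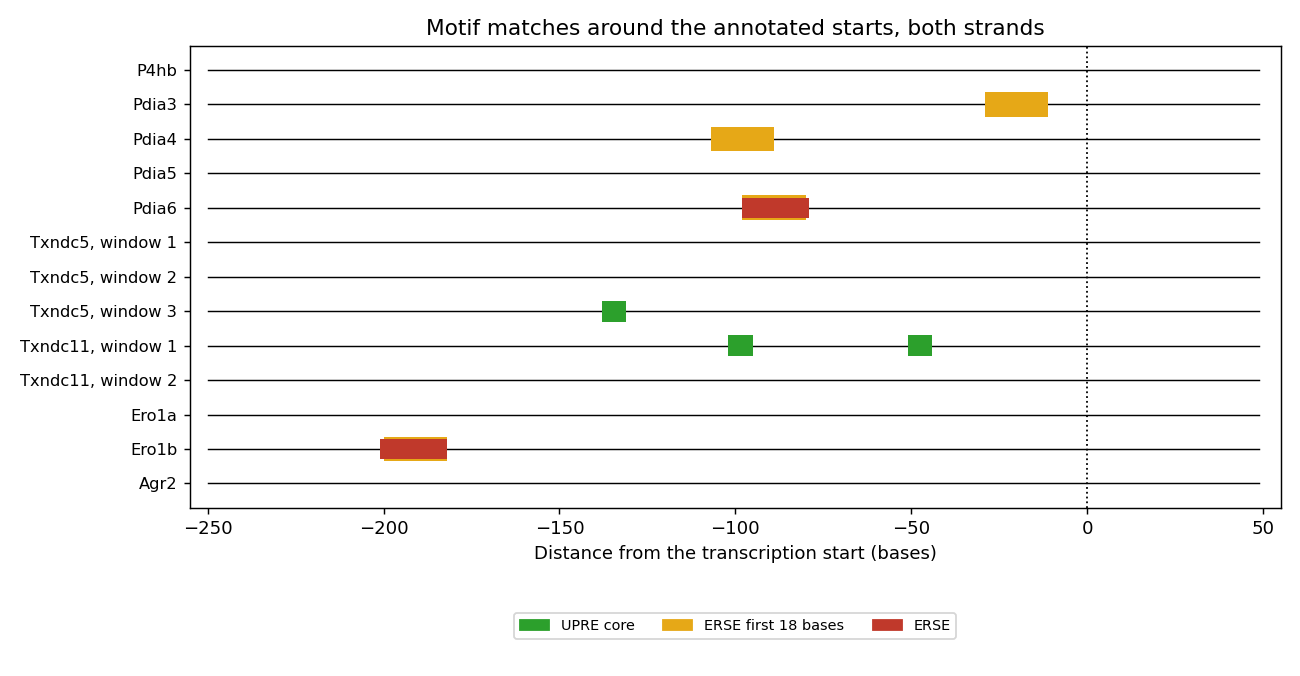
Motif matches in the 13 promoter windows of the 10 genes, by distance from the annotated start in bases. Red marks the exact ER stress response element (ERSE), yellow the element without its last letter and green the letters TGACGTG, the core of another element (UPRE), on either strand. *Pdia6* and *Ero1b* hold the exact element at different distances from the start.

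*P4hb* encodes protein disulfide isomerase itself, which also serves as the beta subunit of prolyl 4-hydroxylase and as a subunit of the microsomal triglyceride transfer protein. Its probe set (1437465_a_at) gave signals of 13050.1, 14988 and 12069 in the wild-type mice, 16792, 16159 and 15949 in *Winnie* mice and 18162, 18758 and 17282 in *Eeyore* mice. The 3 groups did not overlap, with wild-type lowest and *Eeyore* highest. *P4hb* rose by 0.29 ± 0.087 (SE) on the log2 scale in *Winnie* (1.22-fold, adjusted p = 0.033, limma) and by 0.44 ± 0.087 in *Eeyore* (1.36-fold, adjusted p = 0.0033). The *Winnie* call held under 10 of 20 alternatives and was lost when Wild-type mouse 1 or 3 or any *Winnie* mouse was left out (0.22 to 0.31) and without Wild-type mice 1 and 2 (0.43, adjusted p = 0.0663), while the *Eeyore* call held there (0.58, adjusted p = 0.0154).

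*Pdia3*, the isomerase that works with calnexin and calreticulin on glycoproteins, separated the 3 groups. Its main probe set (1423423_at) read 6154, 5904 and 5962 in wild-type, 7932, 7578 and 7492 in *Winnie* mice and 10443, 12104 and 12508 in *Eeyore* mice. Again no group overlapped another. The rise was 0.35 ± 0.088 in *Winnie* (1.28-fold, adjusted p = 0.0148, limma) and 0.96 ± 0.088 in *Eeyore* (1.94-fold, adjusted p = 2.66e-05). *Eeyore* mice exceeded *Winnie* mice by 0.60 ± 0.088 (1.52-fold, adjusted p = 0.00276). A dim probe set of the gene (1445330_at) read 106 to 142, 88.2 to 129.8 and 93 to 150.2 in the 3 groups, with overlap throughout, and was not called (log2 changes of -0.29 ± 0.34 and -0.13 ± 0.34). The *Winnie* call of the main probe set held under 15 of 20 alternatives. It was lost with quantile normalization (0.24, adjusted p = 0.0607, limma) and in a fit without intensity trend (0.35, adjusted p = 0.0693). The call was also lost without Wild-type mouse 2 (0.34, adjusted p = 0.0559) and with the summed acinar signal as a covariate (0.35, adjusted p = 0.131). Without Wild-type mice 1 and 2 it was lost as well (0.36), where that of *Eeyore* held (0.97).

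*Pdia4* encodes a larger isomerase with additional thioredoxin domains that is found with ER chaperones. Its tested probe set (1416497_at) read 319, 182 and 301 in wild-type, 386, 191 and 334 in *Winnie* mice and 669.6, 887 and 792 in *Eeyore* mice. Wild-type and *Winnie* mice overlapped, and every *Eeyore* mouse lay above all 6 others. It had the largest change among the tested probe sets, 1.58 ± 0.28 in *Eeyore* (3.00-fold, adjusted p = 0.00185, limma), while the change in *Winnie* was 0.16 ± 0.28 (adjusted p = 0.716). The strains differed by 1.42 ± 0.28 (2.67-fold, adjusted p = 0.0214). The *Eeyore* change was 1.37 without Wild-type mice 1 and 2 (adjusted p = 0.0545, limma), and the difference between the strains lost its call when *Winnie* mouse 2 (1.12, adjusted p = 0.0519), *Winnie* mouse 3 (1.52, adjusted p = 0.0547), *Eeyore* mouse 2 (1.32, adjusted p = 0.101) or *Eeyore* mouse 3 (1.41, adjusted p = 0.065) was left out. A second probe set (1450620_at) stayed below the filter, with signals of 5.11 to 86.5 over all mice, and was not tested.

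*Pdia6*, an isomerase that associates with the chaperone BiP, rose in both strains, with the numerically greater change in *Winnie*. Signals (1423648_at) were 3781, 3844 and 3462 in wild-type, 5202, 5816 and 5092 in *Winnie* mice and 4667, 4976 and 4248 in *Eeyore* mice. All mutant mice lay above the wild-type mice, and the *Winnie* mice lay above the *Eeyore* mice. The rise was 0.54 ± 0.099 in *Winnie* (1.45-fold, adjusted p = 0.00323, limma) and 0.32 ± 0.099 in *Eeyore* (1.25-fold, adjusted p = 0.0285), and the difference between the strains did not pass the test (-0.21 ± 0.099, adjusted p = 0.331). Both calls were lost without Wild-type mice 1 and 2 (0.63, adjusted p = 0.0567, and 0.42, adjusted p = 0.12, limma), and the *Eeyore* call was also lost when any 1 wild-type mouse, *Eeyore* mouse 1 or *Eeyore* mouse 2 was left out (0.27 to 0.35). The *Eeyore* call held under 11 of 20 alternatives. Other losses were with quantile normalization (0.20, adjusted p = 0.168, limma), in a fit without intensity trend (0.32, adjusted p = 0.0833) and with the acinar covariate (0.41, adjusted p = 0.0598). A second, dim probe set (1430983_at, 8.96 to 107) was not tested and read highest in the wild-type mice.

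*Pdia5*, a further isomerase of the family, passed the test in neither strain. Its signals (1424650_at) were 1941, 1644 and 1510.0 in wild-type, 1472, 1474 and 1694 in *Winnie* mice and 2010.4, 2029 and 1693 in *Eeyore* mice. The groups overlapped, with log2 changes of -0.13 ± 0.13 in *Winnie* and 0.17 ± 0.13 in *Eeyore*. Median centring called the *Eeyore* change (0.50, adjusted p = 0.0126, limma).

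*Txndc5*, which encodes an isomerase with repeated thioredoxin domains that is prominent in plasma cells and endothelium, was the gene that fell. The first probe set (1423746_at) read 3227, 4019 and 3063 in wild-type, 2237, 2415 and 2760.1 in *Winnie* mice and 2694, 3493 and 3185 in *Eeyore* mice. The second (1451091_at) read 2944, 3197 and 2799, then 1938, 2165 and 2428, then 3131, 2772 and 2859.8. With both, all *Winnie* mice lay below all wild-type mice, and *Eeyore* mice overlapped the wild-type range. The *Winnie* changes were -0.47 ± 0.14 (adjusted p = 0.0298, limma) and -0.46 ± 0.11 (adjusted p = 0.0143), and those of *Eeyore* -0.14 ± 0.14 and -0.028 ± 0.11. The strains differed by 0.34 ± 0.14 (adjusted p = 0.27) and 0.43 ± 0.11 (adjusted p = 0.0781), so a difference between them was not shown. Centring each array on its median signal took the *Winnie* changes to -0.062 and -0.047, neither called, and without Wild-type mice 1 and 2 they were -0.32 (adjusted p = 0.393) and -0.37 (adjusted p = 0.276). Leaving out Wild-type mouse 2 also ended both calls (-0.35 and -0.41), and leaving out Wild-type mouse 1, *Winnie* mouse 1 or *Winnie* mouse 2 ended that of the first probe set (-0.51 to -0.40).

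*Txndc11*, a thioredoxin-domain protein of the ER membrane known as a partner of dual oxidases, did not pass the test in any of the 3 comparisons. Its tested probe set (1448782_at) read 745, 634 and 665 in wild-type, 578, 597 and 550.4 in *Winnie* mice and 669, 1147 and 825 in *Eeyore* mice. The *Winnie* mice lay below both other groups, without overlap. The changes were -0.24 ± 0.19 in *Winnie* and 0.34 ± 0.19 in *Eeyore*, and the strains differed by 0.58 ± 0.19 (adjusted p = 0.148, limma). The difference between the strains was called without *Eeyore* mouse 1 (0.76, adjusted p = 0.0384), and the *Eeyore* change was called with median centring (0.66, adjusted p = 0.0155) and was 0.13 without *Eeyore* mouse 2. Its other probe set (1453763_at, 34 to 115 over all mice) lay below the filter.

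**Figure D4:**
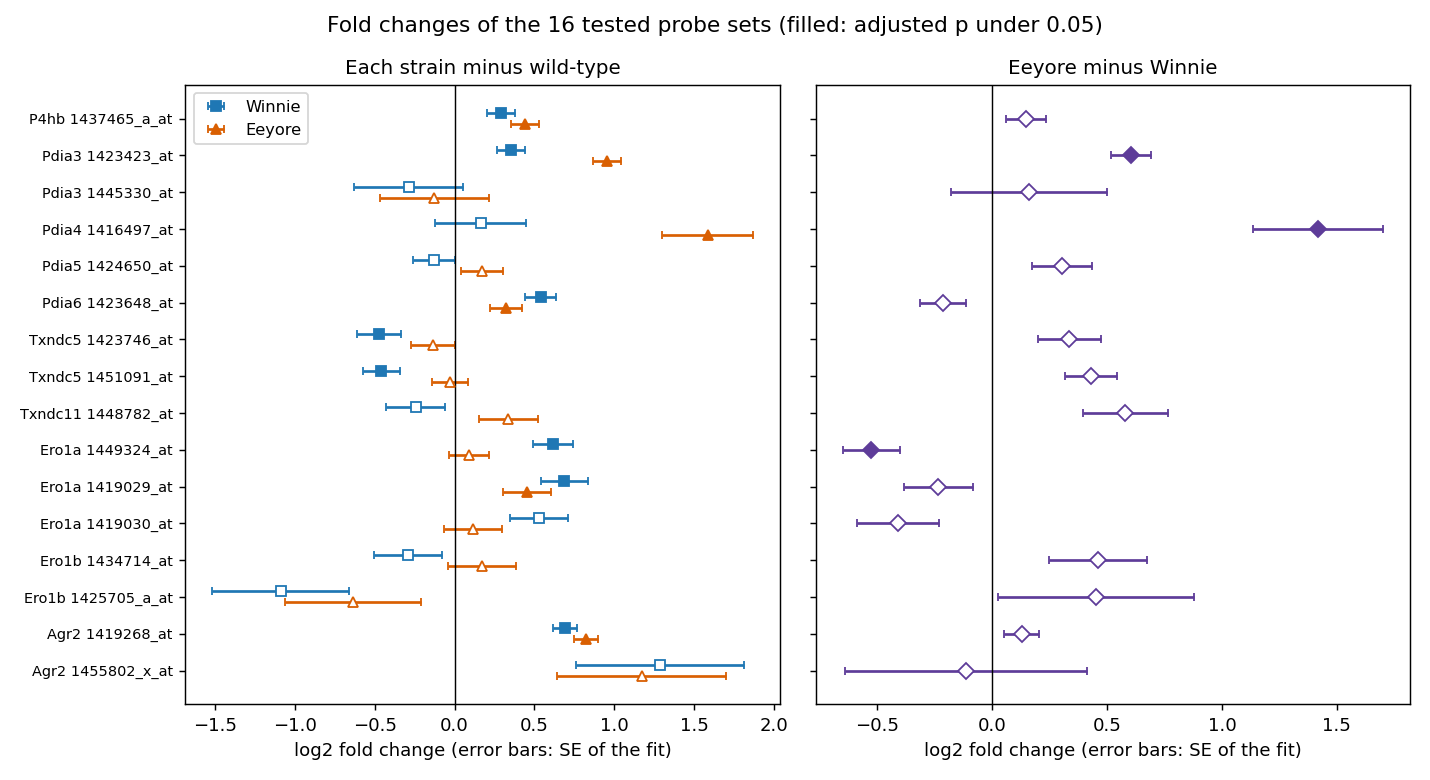
Log2 fold changes of the 16 tested probe sets, for *Winnie* (squares) and *Eeyore* (triangles) against wild-type on the left and for *Eeyore* against *Winnie* on the right. Error bars are the SE of the fit and filled symbols have an adjusted p under 0.05. In the comparison of the strains, the filled symbols are those of *Pdia3* and *Pdia4* to the right and *Ero1a* to the left of 0. Symbols of other genes that stand off 0 there, such as *Txndc11*, are open.

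*Ero1a* encodes the widely expressed Ero1 oxidase, and all 3 of its probe sets were tested. The brightest (1449324_at) read 1563, 1914 and 2084 in wild-type, 2876, 2829.9 and 2766 in *Winnie* mice and 1954, 1801 and 2135 in *Eeyore* mice. The *Winnie* mice stood above all others, and *Eeyore* and wild-type mice overlapped. This probe set rose by 0.62 ± 0.12 in *Winnie* (1.53-fold, adjusted p = 0.00518, limma), its change in *Eeyore* was 0.090 ± 0.12 (adjusted p = 0.617), and *Eeyore* was lower than *Winnie* by a log2 difference of -0.53 ± 0.12 (adjusted p = 0.0487). That difference was called under 7 of 20 alternatives, and its adjusted p ran from 0.0326 to 0.181. It was lost when Wild-type mouse 2, any *Winnie* mouse or any *Eeyore* mouse was left out (-0.59 to -0.47).

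The other probe sets of *Ero1a* gave the same order of the strains, but their differences between the strains were not called. The second (1419029_at) read 1180.3, 938 and 1275 in wild-type, 1938, 1827 and 1665 in *Winnie* mice and 1646, 1306 and 1685 in *Eeyore* mice, with all mutant mice above wild-type. It rose in both strains, by 0.69 ± 0.15 (adjusted p = 0.00753, limma) and 0.45 ± 0.15 (adjusted p = 0.0386), with a difference of -0.23 ± 0.15 (adjusted p = 0.498). The third (1419030_at) read 715, 819 and 979.6, then 1170.5, 1277 and 1150.2, then 994, 686 and 1073, and was not called in *Winnie* (0.53 ± 0.18, adjusted p = 0.0556) or *Eeyore* (0.12 ± 0.18). In *Winnie* its signals nonetheless lay above all wild-type signals, and the *Winnie* change was called under 8 of 20 alternatives (adjusted p from 0.00264 to 0.566), among them quantile normalization and the fit without Wild-type mouse 3 (0.65, adjusted p = 0.0419). No *Ero1a* call against wild-type held without Wild-type mice 1 and 2: the *Winnie* changes of the first and second were 0.44 (adjusted p = 0.173) and 0.50 (adjusted p = 0.204), and the *Eeyore* change of the second was 0.27 (adjusted p = 0.428). That *Eeyore* call was also lost without Wild-type mouse 1 or 2, *Winnie* mouse 3, or *Eeyore* mouse 1 or 3 (0.32 to 0.49).

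*Ero1b*, the Ero1 oxidase typical of pancreas and other professional secretory cells, passed the test in no comparison. Its brighter probe set (1434714_at) read 440.0, 641 and 415 in wild-type, 499.9, 316 and 407 in *Winnie* mice and 542, 590.1 and 524 in *Eeyore* mice. The changes of -0.29 ± 0.21 and 0.17 ± 0.21 were within the spread of the mice. A dimmer one (1425705_a_at) read 119 to 235 in wild-type and 63.6 to 90.4 in *Winnie* mice, which did not overlap, and 60.6 to 146 in *Eeyore* mice. Its *Winnie* change was -1.09 ± 0.43 (adjusted p = 0.0893, limma). The remaining probe set (1449948_at) lay below the filter, with signals of 5.16 to 149.8.

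*Agr2* had the lowest adjusted p of the 10 genes in both strains. Its main probe set (1419268_at) read 27026, 28708 and 26722 in wild-type, 43036, 41844 and 48519 in *Winnie* mice and 50875, 47864 and 46812 in *Eeyore* mice. All mutant mice stood far above the wild-type mice, and the strains overlapped each other. *Agr2* rose by 0.69 ± 0.075 in *Winnie* (1.62-fold, adjusted p = 0.000191, limma) and 0.82 ± 0.075 in *Eeyore* (1.76-fold, adjusted p = 2.46e-05), with a difference between the strains of 0.13 ± 0.075 (adjusted p = 0.455). Both calls held without Wild-type mice 1 and 2, at 0.73 (adjusted p = 0.0139) and 0.86 (adjusted p = 0.00334).

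A second *Agr2* probe set (1455802_x_at) behaved differently. It read 1983, 1938 and 9228 in wild-type, 6533, 5156 and 15244 in *Winnie* mice and 7126, 5962 and 9531 in *Eeyore* mice, with mouse 3 the highest of each group. Wild-type mouse 3 thus lay within the range of the mutant mice and Wild-type mice 1 and 2 below it, and the changes of 1.29 ± 0.53 and 1.17 ± 0.53 did not pass the test (adjusted p = 0.102 and 0.115, limma). Without Wild-type mouse 3 they were 2.03 (adjusted p = 0.00369) and 1.92 (adjusted p = 0.00354), and without Wild-type mice 1 and 2 they were -0.20 and -0.32, so this value depends on which wild-type mice are included.

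**Figure D5:**
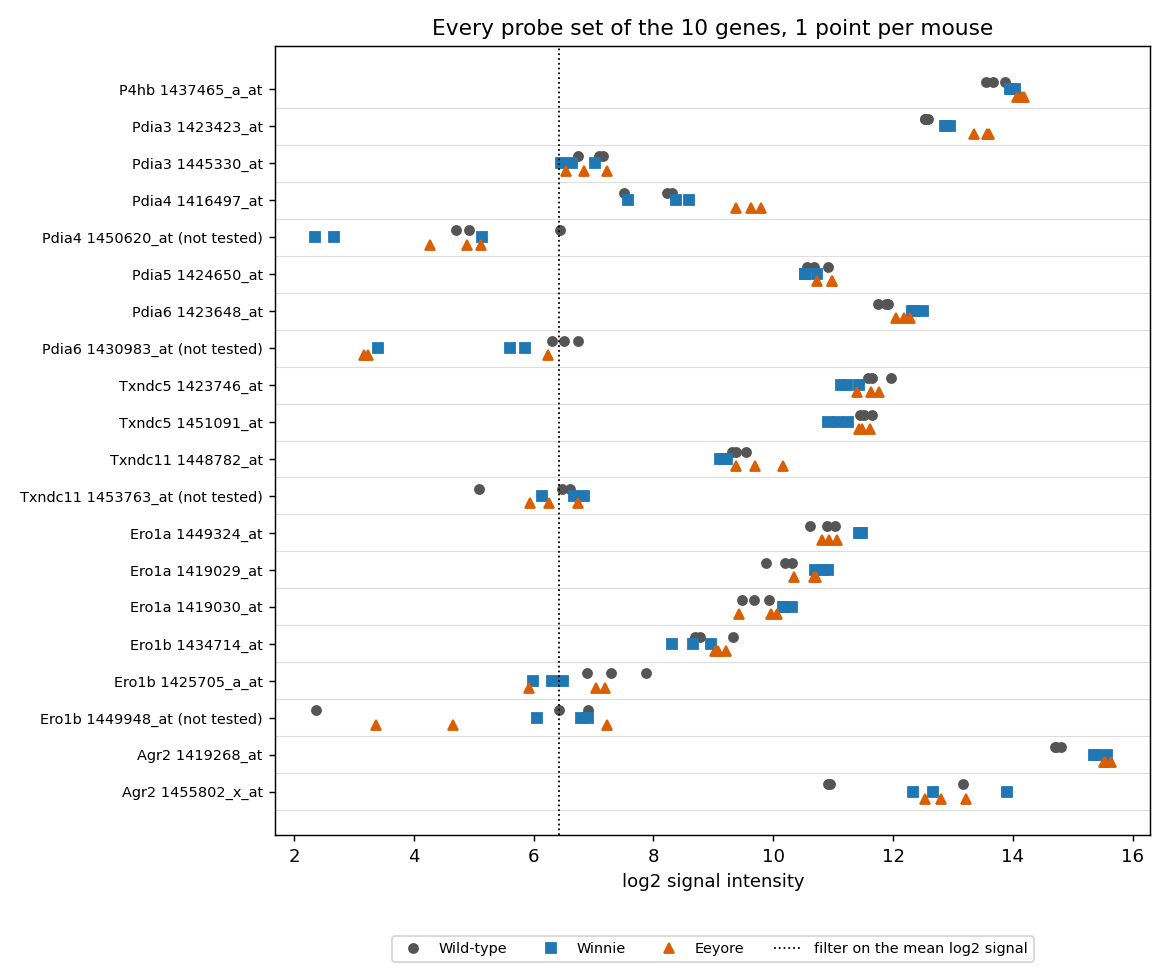
Log2 signal of all 20 probe sets of the 10 genes, with 1 point per mouse and groups by colour and symbol. The dotted line is the filter on the mean log2 signal, at 6.43. The second *Agr2* probe set and the 4 untested probe sets have the widest scatter within groups.

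The direct comparison of the strains separated the members further. In *Eeyore* against *Winnie* mice, 2 of the 16 probe sets were higher (*Pdia3* and *Pdia4*) and 1 was lower (*Ero1a*), where 1.07% and 1.24% of all tested probe sets were called. The signals did not overlap at 6 higher and 3 lower probe sets, against 9.29% and 10.1%. For *P4hb* the strains differed by 0.15 ± 0.087 (adjusted p = 0.461, limma), for *Agr2* by 0.13 ± 0.075 and for *Pdia5* by 0.30 ± 0.13 (adjusted p = 0.298). The NOD-SCID share of the *Eeyore* background and the *Muc2* allele cannot be told apart here.

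Among 24 other oxidative folding enzymes of the secretory pathway, 21 were tested. In *Winnie* 5 of them were higher and 4 lower, where 11.3% and 11.9% of all tested genes were. In *Eeyore* 9 were higher and 5 lower, against 14% and 16.6% of all genes, and the median log2 changes were 0.16 and 0.26. These counts depend on reading each gene from its brightest probe set. With the mean over the probe sets of a gene, 18 were tested. Of these, 2 were higher and 3 lower in *Winnie*, and 3 were higher and 3 lower in *Eeyore*, so rises did not outnumber falls. *Creld2*, an ER stress-inducible protein with isomerase activity, rose from 1126 to 1389.9 in wild-type to 2152 to 2716 in *Winnie* and 3739.9 to 4505 in *Eeyore* mice, by 0.94 ± 0.13 and 1.75 ± 0.13 (adjusted p = 0.000751 and 6.84e-06, limma). It was the only one of the 21 that differed between the strains (0.81 ± 0.13, adjusted p = 0.00621), where 1.29% of all tested genes were higher and 1.3% lower in *Eeyore*. *Erp44*, which retrieves Ero1 from the early Golgi, rose by 0.48 ± 0.12 and 0.70 ± 0.12, and *Vkorc1l1*, a vitamin K epoxide reductase that can pass oxidation to isomerases, by 1.01 ± 0.22 and 0.96 ± 0.22. *Prdx4*, the ER peroxiredoxin, rose in *Eeyore* (0.64 ± 0.16, adjusted p = 0.0105, limma) and changed by 0.43 ± 0.16 in *Winnie* (adjusted p = 0.0724).

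The falls seen in both strains were in *Qsox1*, a sulfhydryl oxidase of the Golgi and the secretions, *Gpx8*, an ER membrane peroxidase, *Selenom*, a thioredoxin-fold selenoprotein, and *Vkorc1*, the vitamin K epoxide reductase of the clotting pathway. *Qsox1* changed by -0.99 ± 0.18 in *Winnie* and -0.87 ± 0.18 in *Eeyore* (adjusted p = 0.0033 and 0.00427, limma). *Gpx8* changed by -1.01 ± 0.20 and -1.17 ± 0.20, *Selenom* by -0.68 ± 0.14 and -0.57 ± 0.14, and *Vkorc1* by -0.58 ± 0.15 and -0.66 ± 0.15. The remaining fall was that of *Tmx4*, a thioredoxin-related membrane protein of the ER named to complete the count, in *Eeyore* (-0.48 ± 0.15, adjusted p = 0.029, limma), and its change in *Winnie* was -0.36 ± 0.15 (adjusted p = 0.0998). *Pdia2*, named after its values were seen, was not called: it read 1304 and 1369 in Wild-type mice 1 and 2, 2.56 in Wild-type mouse 3, and 56.7 to 115 in the mutant mice, so that it was high in the same 2 mice as the acinar markers. The fit without Wild-type mice 1 and 2, which leaves 1 wild-type array, called fewer genes of the list in both strains and also fewer of all probe sets.

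Among 8 partners of the isomerases (prolyl 4-hydroxylase subunits, *Mttp* and the lectin and peptide-loading partners of *Pdia3*), 5 were tested. None passed limma's test in *Winnie* (1 at an unadjusted p under 0.05), and only *Calr*, the lectin chaperone calreticulin, passed in *Eeyore* (13753 to 17963 in wild-type and 22838 to 24752 in *Eeyore*, 0.57 ± 0.12, adjusted p = 0.00459). Its change in *Winnie* was 0.066 ± 0.12. Of 21 tested ER chaperones, 9 were higher and 1 lower in *Winnie*, with 12 higher and 2 lower in *Eeyore*, beside 11.3% higher and 11.9% lower among all tested genes in *Winnie* and 14% and 16.6% in *Eeyore*. Those with the largest changes were *Sdf2l1*, a partner of BiP (1.03 ± 0.20 and 1.86 ± 0.20), *Manf*, a secreted ER stress protein (1.23 ± 0.087 and 1.56 ± 0.087), and *Fkbp11*, a peptidyl-prolyl isomerase (1.20 ± 0.28 and 1.08 ± 0.28). The fit without Wild-type mice 1 and 2, which leaves 1 wild-type array, called fewer chaperones in both strains and also fewer of all probe sets.

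Of 14 sensors and factors of the unfolded protein response, 2 were higher and 2 lower in *Winnie*, with 1 higher and 1 lower in *Eeyore*. These counts are near or below the shares of all tested genes (11.3% and 11.9% in *Winnie*, 14% and 16.6% in *Eeyore*), so the list does not stand apart by its number of calls. *Trib3*, a target of ATF4 and CHOP, rose by 1.85 ± 0.41 and 2.13 ± 0.41 from a dim wild-type signal of 38.7 to 133. Its wild-type mean of 75.4 lay below the filter (a signal of 85.9), which it passed only through its mutant signals. *Ern2*, the IRE1 sensor of mucosal epithelia, fell in *Winnie* (-0.74 ± 0.16, adjusted p = 0.00836, limma) and changed by -0.36 ± 0.16 in *Eeyore* (adjusted p = 0.119). *Atf4* rose in *Winnie* (0.41 ± 0.11, adjusted p = 0.0191, limma) and changed by 0.24 ± 0.11 in *Eeyore* (adjusted p = 0.118).

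Markers of the cells that could carry these transcripts also moved, and their counts are to be read against the 11.3% higher and 11.9% lower of all tested genes in *Winnie* and the 14% and 16.6% in *Eeyore*. Of 19 tested goblet cell markers, 1 was higher and 8 were lower in *Winnie*, with 2 higher and 5 lower in *Eeyore*. *Muc2* itself read 70046 to 85946 in wild-type, 25759 to 35694 in *Winnie* and 32542 to 36854 in *Eeyore* mice, a change of -1.27 ± 0.12 and -1.13 ± 0.12 (adjusted p = 8.01e-05 and 7.67e-05, limma), so that it fell while *Agr2* rose. Summed goblet marker signals ran from 406492 to 471751 in wild-type, 223268 to 277945 in *Winnie* and 327224 to 406384 in *Eeyore* mice. All 15 smooth muscle markers fell in both strains, with *Myh11* at -1.39 ± 0.10 and -1.97 ± 0.10, and their summed signal fell from 226917 to 232823 in wild-type to 107365 to 116807 in *Winnie* and 88507 to 97978 in *Eeyore* mice.

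Of 10 plasma cell markers, 2 rose in *Winnie* and 4 in *Eeyore*, while 8 and 6 were not called. Their summed signals were 22515 to 29865 in wild-type, 26964 to 34238 in *Winnie* and 33306 to 45586 in *Eeyore* mice. *Jchain*, the immunoglobulin joining chain, rose in *Eeyore* (0.57 ± 0.20, adjusted p = 0.0459, limma) and was not called in *Winnie* (0.27 ± 0.20, adjusted p = 0.349). Of 10 fibroblast markers 2 fell in *Winnie* and 5 in *Eeyore* (*Col1a1* was not called, -0.12 ± 0.19 and 0.073 ± 0.19), with summed signals of 39808 to 41598, 27477 to 32859 and 28192 to 32258. Of 10 colonic epithelium markers 3 rose in *Winnie* and 4 in *Eeyore* (*Car1* was not called, -0.19 ± 0.14 and -0.23 ± 0.14), with summed signals of 215934 to 244877, 235405 to 269904 and 245225 to 261264. Of 7 enteroendocrine markers 2 were higher in *Winnie*, while 1 was higher and 3 were lower in *Eeyore*, and *Chga* was among the latter (-1.02 ± 0.21, adjusted p = 0.00436, limma). None of the 7 acinar markers was called by limma (at an unadjusted p under 0.05, 6 were lower in *Winnie* and 0 in *Eeyore*), with *Cpa1* at 17424 and 16468 in Wild-type mice 1 and 2, 90.1 in Wild-type mouse 3, and 82.5 to 2277 in mutant mice. The part of these cell types in the changes of the folding enzymes was not tested.

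Over the 9 arrays, the tested genes whose log2 signal followed that of *Agr2* most closely were *Nipal2*, *Tmem120a* and *Rab14* (Pearson r = 0.99 for each). Those most like *P4hb* were *Erp44* (0.98), *Malsu1* (0.98) and *Jagn1* (0.97), and those most like *Ero1a* were *Xpo7* (0.97), *Zwilch* (0.97) and *Cask* (0.95). These correlations are descriptions over 9 points that share the group differences and the scaling of each array.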

How the data were processed

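Large intestinal RNA (proximal and distal, mixed equally per mouse) was hybridised to Affymetrix Mouse 430 2.0 arrays, 1 per mouse. The authors deposited a linear signal intensity per probe set, scaled to a trimmed mean (2% at each end) of 500; the algorithm is not given in the sources used here. The deposited values were log2-transformed without further scaling. After 64 control probe sets were set aside, the 22519 of 45037 at or above the 50th percentile of mean log2 signal were tested with limma 3.58.1 in R 4.3.3 (lmFit on group means of all 9 arrays, eBayes with intensity trend), with Benjamini-Hochberg adjustment over them and a threshold of 0.05. Errors are SE of the fit. The procedure was also run on simulated independent noise with added *Winnie* shifts. That simulation held none of the sex, acinar or median-signal differences of these arrays, so it cannot speak to them. The 3 arrays per group limit the precision.

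The platform annotation, with updated symbols, paired 34945 probe sets with 1 gene symbol, 932 with several and 9160 with none. Genes of lists are read from their brightest probe set. Promoter windows are from RefSeq (GRCm38.p6), and all 10 genes matched. The members and lists were chosen with earlier results of these data known. Outside the 10 genes, the text names the up to 8 other folding enzymes, and the 3 genes of each further pathway list, with the largest mean change over both strains among those called, the first gene of each marker list, *Xist*, *Eif2s3y* and the 3 genes most correlated with *Agr2*, *P4hb* and *Ero1a*. Alternatives covered the scaling, filter, pseudocount, variance model, arrays fitted, mouse number as a block and leaving out mice. For gene lists they also covered the mean over the probe sets of a gene. Those for the acinar signal were chosen after seeing the data. Python 3.11.15 with matplotlib 3.10.9 made the plots.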

Additional observations from a re-analysis of the deposited data

Results flagged for a closer look

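The change from wild-type differed between the strains, by a test of the difference itself (*Eeyore* minus *Winnie*, limma), for 3 probe sets. *Pdia3* (1423423_at) was higher in *Eeyore* by 0.60 on the log2 scale (adjusted p = 0.00276), with every *Eeyore* mouse above every *Winnie* mouse. *Pdia4* (1416497_at) was higher in *Eeyore* by 1.42 (adjusted p = 0.0214), again in 3 of 3 mice. *Ero1a* (1449324_at) differed by -0.53 (adjusted p = 0.0487), with every *Eeyore* mouse below every *Winnie* mouse, and the other 2 probe sets of the gene did not pass the test. No group held 4 or more mice, so single mice were not tested as outliers.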

How the results depend on the processing

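Of 17 calls over the member probe sets, 4 held under every alternative: *Agr2* in both strains, *P4hb* in *Eeyore* and *Pdia3* in *Eeyore*. No called value changed direction. Against 8 called probe sets in *Winnie*, 6 in *Eeyore* and 3 between the strains, at least 2-fold changes left 0, 1 and 1, a fit without intensity trend 5 in *Winnie* and 0 between the strains, and median centring gave 10 in *Eeyore*, adding *Pdia5*, *Txndc11*, *Ero1a* 1449324_at and *Agr2* 1455802_x_at. Median centring raised the median of all tested probe sets by 0.41 in *Winnie* and 0.33 in *Eeyore*, and quantile normalization by 0.12 in both. Over all 22519 tested probe sets, median centring called 7234 higher and 853 lower in *Winnie*, with 6350 and 1877 in *Eeyore*. The main fit called 2195 and 2639 in *Winnie* and 2747 and 3842 in *Eeyore*, so calls of higher signal became more numerous generally. Leaving out 1 mouse at a time gave 5 to 9, 4 to 6 and 1 to 3 calls. The *Winnie* count was 5 without Wild-type mouse 2, and the count between the strains was 1 without *Winnie* mouse 2 or 3, or *Eeyore* mouse 2 or 3. Without Wild-type mice 1 and 2, where the lone wild-type mouse is assumed to vary like the other groups, 1 probe set was called in *Winnie* and 3 in *Eeyore*, and with the summed acinar signal as a covariate 2 in *Winnie*. Over all probe sets, the fit without these mice called 366 higher and 251 lower in *Winnie* and 814 and 840.0 in *Eeyore*, so calls became fewer generally with 1 wild-type array. The covariate fit called 621 higher and 535 lower of all tested probe sets in *Winnie*, and 1381 and 1692 in *Eeyore*. Its calls thus became fewer generally as well. In *Eeyore*, *P4hb*, *Pdia3* 1423423_at, *Pdia4* and *Agr2* 1419268_at kept their calls with the covariate, while *Pdia6* and *Ero1a* 1419029_at lost theirs. The cause of the other changes was not tested.

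Mice of the same number in different groups deviated together weakly at most (9 pairs, r from -0.00821 to 0.164, 1 above 0.1). Between wild-type and *Winnie* the same-number pairs had r of 0.068, 0.085 and 0.164, above the -0.095 to 0.020 of different numbers. Pairs with *Eeyore* mice ran from -0.0082 to 0.044 at the same number and -0.035 to 0.023 at different numbers. The main fit did not take the numbers to pair the mice. With mouse number as a replicate block, 9, 7 and 2 member probe sets were called. Over all 22519 tested probe sets this fit called 2238 higher and 2634 lower in *Winnie*, 2773 and 3831 in *Eeyore*, and 253 and 271 between the strains. The block added the second *Agr2* probe set for *Winnie* (1.29, adjusted p = 0.00817, limma) and *Eeyore* (1.17, adjusted p = 0.0089) and removed the *Ero1a* difference between the strains (-0.53, adjusted p = 0.058).

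Only values that were called neither before nor after turned sign. In *Winnie* against wild-type these were, with median centring, *Ero1b* 1434714_at (0.12), *Pdia3* 1445330_at (0.12), *Pdia5* (0.28) and *Txndc11* (0.17), and with quantile normalization *Pdia3* 1445330_at (0.11). Without Wild-type mice 1 and 2 they were *Agr2* 1455802_x_at (-0.20), *Pdia4* (-0.049) and *Pdia5* (0.031), and with the acinar covariate the same probe sets (-0.18, -0.053 and 0.035). In *Eeyore* against wild-type they were, with median centring, *Pdia3* 1445330_at (0.20) and *Txndc5* (0.19 and 0.30), and with quantile normalization *Pdia3* 1445330_at (0.22). Without Wild-type mice 1 and 2 they were *Agr2* 1455802_x_at (-0.32), *Ero1a* 1419030_at and 1449324_at (-0.12 and -0.090) and *Txndc5* (0.020 and 0.060), and with the covariate *Agr2* 1455802_x_at (-0.12), *Ero1a* 1419030_at and 1449324_at (-0.072 and -0.070) and *Txndc5* 1451091_at (0.048). Between the strains *Agr2* 1455802_x_at became 0.059 with the covariate. Leaving out 1 mouse at a time took *Pdia4* in *Winnie* from -0.090 to 0.47, and in *Eeyore* *Pdia3* 1445330_at from -0.31 to 0.037, *Txndc5* 1451091_at from -0.080 to 0.023, *Ero1a* 1449324_at from -0.028 to 0.18 and *Ero1a* 1419030_at from -0.0086 to 0.31. Between the strains it took *Pdia3* 1445330_at from -0.022 to 0.32 and *Agr2* 1455802_x_at from -0.43 to 0.35.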
